A study of Mus musculus with 34 samples.

Results

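The 7 genes described here, Hras, Nras, Braf, Map2k1, Map2k2, Mapk3 and Dusp6, are parts of the Ras, Raf and MAP kinase cascade and of its feedback. They were chosen by name from 21938 protein-coding genes, and the value of each was the mean H3K4me3 signal within 1000 bp of the 5′ end of the gene (GENCODE M21, mm10). H3K4me3 was profiled by CUT&RUN, in which an antibody guides a fusion of protein A and micrococcal nuclease to unfixed chromatin and the released DNA is sequenced. The libraries came from villus cells scraped from the small intestine of C57BL/6J mice, 2 of wild-type genotype and 2 ApcMin/+ mice, which carry 1 mutant allele of the tumor suppressor Apc in every cell. The labels give an age of 5 weeks for all 4 libraries, although the methods of the study state another age, and the methods describe the tissue as normal in appearance. Scraped villus cells are a mixture, and fewer cells of a type that carries the mark cannot be told apart from less of the mark per cell.

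Ras proteins are small GTPases that receptor tyrosine kinases switch on through adaptors and exchange factors. Active Ras recruits Raf kinases, Raf phosphorylates the MEK kinases, and MEK phosphorylates the ERK kinases, which act on transcription factors and also induce their own inhibitors. In the intestine the cascade carries the EGF receptor signal that sustains growth of the epithelium, and it is often activated by mutation in intestinal tumors. H3K4me3 is a mark of nucleosomes around the starts of genes in use and of CpG-rich promoters. It is not a measure of the amount of protein or of kinase activity.

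The promoters of 6 of the 7 genes were found in a RefSeq table of 300 bases around the gene start (GRCm38.p6, most of it before the start). There was no entry for Mapk3. The sequences below are those of the genes on which the comparisons turn, given 5′ to 3′ along the gene. Capitals mark matches on either strand to any of 4 motifs. GGGCGG is known as the box bound by Sp1. CCAAT is the motif bound by NF-Y. TGACGTCA is the cAMP response element, and GCGCATGC is the core of the motif of the factor NRF1. Hras is shown because its promoter is shared with a gene on the other strand. Nras and Braf are shown because the genotype groups did not overlap there. Map2k2 is shown because the ApcMin/+ libraries differed most there, and Dusp6 because its H3K4me3 was the broadest on the mean of the libraries.
Hras, chr7:141193955-141194254, minus strand: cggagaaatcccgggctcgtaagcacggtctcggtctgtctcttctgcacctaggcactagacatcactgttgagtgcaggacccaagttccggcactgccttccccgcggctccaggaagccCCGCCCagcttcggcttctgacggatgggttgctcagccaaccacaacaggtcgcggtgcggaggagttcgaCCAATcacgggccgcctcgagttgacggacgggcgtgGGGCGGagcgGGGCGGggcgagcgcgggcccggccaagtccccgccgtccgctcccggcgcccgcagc
Nras, chr3:103058035-103058334, plus strand: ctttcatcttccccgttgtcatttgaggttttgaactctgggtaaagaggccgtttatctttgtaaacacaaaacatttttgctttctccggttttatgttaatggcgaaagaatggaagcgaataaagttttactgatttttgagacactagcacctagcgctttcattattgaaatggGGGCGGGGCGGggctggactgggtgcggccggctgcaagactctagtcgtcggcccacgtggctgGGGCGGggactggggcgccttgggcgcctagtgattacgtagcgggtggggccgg
Braf, chr6:39725414-39725713, minus strand: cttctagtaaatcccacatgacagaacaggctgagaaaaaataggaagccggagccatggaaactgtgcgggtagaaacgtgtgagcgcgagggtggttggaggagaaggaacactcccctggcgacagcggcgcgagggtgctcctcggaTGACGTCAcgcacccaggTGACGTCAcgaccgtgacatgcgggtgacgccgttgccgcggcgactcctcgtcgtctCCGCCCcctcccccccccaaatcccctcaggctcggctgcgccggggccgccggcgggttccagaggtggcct
Map2k2, chr10:81105665-81105964, plus strand: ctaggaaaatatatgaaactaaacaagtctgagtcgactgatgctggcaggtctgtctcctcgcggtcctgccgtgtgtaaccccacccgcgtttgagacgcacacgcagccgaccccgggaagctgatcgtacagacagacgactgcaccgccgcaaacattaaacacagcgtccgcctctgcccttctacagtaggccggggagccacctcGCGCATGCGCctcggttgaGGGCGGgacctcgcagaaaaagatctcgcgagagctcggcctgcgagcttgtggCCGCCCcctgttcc
Dusp6, chr10:99262981-99263280, plus strand: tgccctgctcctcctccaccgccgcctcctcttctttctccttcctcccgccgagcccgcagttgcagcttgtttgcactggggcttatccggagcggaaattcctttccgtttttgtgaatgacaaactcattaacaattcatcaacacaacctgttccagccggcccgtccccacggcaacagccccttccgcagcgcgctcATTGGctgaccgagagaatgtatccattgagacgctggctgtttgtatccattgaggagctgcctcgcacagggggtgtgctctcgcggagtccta

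All 6 promoters held more CpG dinucleotides than the median promoter. Map2k1 held 31, Hras 34, Braf 30 and Map2k2 28, and Nras and Dusp6 held 19 each, where the median of the 32851 RefSeq promoters of the same length was 7. These promoters outnumber the 21938 protein-coding genes used elsewhere, so the sets differ. Of the RefSeq promoters, 92.3% held fewer than Hras, 89.4% fewer than Map2k1, 88.3% fewer than Braf and 85.8% fewer than Map2k2. For Nras and Dusp6 this share was 71.9%. GGGCGG was found in 5 of the 6 promoters, all but that of Dusp6, and in 35.7% of all promoters. Hras and Nras carried 3 copies each, Map2k1 4, Map2k2 2 and Braf 1, and a pair of the copies in Nras overlapped by 1 base. CCAAT was found in Hras, Map2k1 and Dusp6 and in 37.4% of all promoters. Braf held TGACGTCA at 2 places, starting 99 and 81 bases before the RefSeq start, whereas 1.79% of all promoters held it at all and 13 of 32851 held it at least 2 times. In Map2k2 the forward and reverse matches to GCGCATGC overlapped in a single palindrome, and 2.71% of all promoters held this motif. TATAAA, found in 13.6% of all promoters, and the ETS motif CCGGAAGT, found in 3.89%, had no match in the 6 windows.

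Depth ranged from 1430000 tags in wild-type replicate 1 to 5470000 in ApcMin/+ replicate 2, with 4790000 in wild-type replicate 2 and 3700000 in ApcMin/+ replicate 1. The libraries also differed in enrichment. Among the 9930 promoters tested, whose signal averaged 2 or more, the median was 4.53 and 3.06 in wild-type libraries and 13.2 and 4.18 in ApcMin/+ libraries, so ApcMin/+ replicate 1 stood apart. At 98.6% of the tested promoters it was above all other libraries, and whether this belongs to the genotype or to the library cannot be told apart with 2 mice per genotype. For this reason each difference at the 7 genes is also given with every library centred on its median promoter, and without ApcMin/+ replicate 1. All 10 enterocyte markers, Vil1, Cdx2 and Alpi among them, passed the filter on low signal, with summed signals of 59.7 and 37.3 in wild-type and 203 and 48.3 in ApcMin/+ libraries. The lists of 8 immune and 8 mesenchyme and endothelium markers had no gene past the filter. Their sums were 5.67 and 5.16 against 9.01 and 5.72 for immune genes, and 2.43 and 4.74 against 5.39 and 5.50 for mesenchyme and endothelium. The sums of 8 genes silent in intestine were 5.14 and 4.46 in wild-type and 2.50 and 4.51 in ApcMin/+ libraries. Among these, Ptprc, Col1a1, Cdh5, Col3a1, Pdgfra, Neurod6 and Hbb-bt were at 0 in wild-type replicate 1, and no marker was at 0 in all libraries.

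All 7 genes passed the filter on low signal, Nras and Braf only through the ApcMin/+ libraries, since their wild-type means of 1.69 and 1.48 were below 2. Averaged over the 4 libraries, Dusp6 had the highest promoter signal at 12.3, followed by Map2k2 at 10.0, Map2k1 at 9.19, Mapk3 at 8.73, Hras at 7.81, Nras at 4.70 and Braf at 3.26. Dusp6 was the highest of the 7 in all libraries except wild-type replicate 1, where Map2k1 was. Braf was the lowest in all except wild-type replicate 1, where Nras was. Of the neighbours in this order, Dusp6 was above Map2k2 and Hras above Nras in all 4 libraries. The other neighbours changed places between libraries and so did not differ beyond their spread. Ranked among all 21938 protein-coding promoters within a library, Dusp6 lay between the percentiles 92.9 and 98.2, Map2k1 between 86.5 and 93.9, Hras between 81.8 and 90.1, and Mapk3 between 80.0 and 91.6. Map2k2 ranged from 70.4 to 97.0, Braf from 45.2 to 65.5, and Nras from 34.7 to 81.0.

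Values below are given for replicate 1 and then replicate 2 of each genotype. Hras encodes 1 of the Ras GTPases (chromosome 7, 141189105 to 141194005, minus strand). Its promoter held a signal of 6.27 and 3.44 in the wild type and of 15.8 and 5.73 in ApcMin/+ mice. The second ApcMin/+ library fell inside the wild-type range, so the groups overlapped. The wild-type mean was 4.86 ± 2.0 and the ApcMin/+ mean 10.8 ± 7.11 (SD, n = 2 each), and the log2 difference of 0.90 (standard error 1.14) did not pass the test (limma, adjusted p = 0.683). Relative to the median promoter it was 0.049. Lrrc56, which encodes a leucine-rich repeat protein, starts 152 bp upstream on the other strand, and its own window, which overlaps that of Hras almost wholly, held 6.53, 3.45, 15.6 and 5.48 in the same order. The signal at Hras can therefore not be assigned to either gene.

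Nras encodes another Ras GTPase (chromosome 3, 103058285 to 103067914, plus strand). The signal at its promoter was 0.697 and 2.67 in the wild type and 10.9 and 4.54 in ApcMin/+ mice. Both ApcMin/+ libraries were above both wild-type libraries. The means were 1.69 ± 1.4 and 7.71 ± 4.47 (SD, n = 2 each), and the log2 difference of 1.70 (standard error 0.81) was the largest of the 7 in this fit but did not pass after adjustment (limma, unadjusted p = 0.036, adjusted p = 0.683). With no filter on low signal the unadjusted p in limma was 0.0669. The log2 difference was 0.85 relative to the median promoter (adjusted p = 1.00) and 1.15 without ApcMin/+ replicate 1. The low end of this comparison rests on 2 fragments in wild-type replicate 1, for which the exact Poisson interval at 95% is 0.242 to 7.22, against 26, 81 and 50 fragments in the other libraries. Without wild-type replicate 1 the log2 difference was 1.14, and with centring as well it was 0.067. At the tested promoters with signal in both wild-type libraries, 0.302% had a lower ratio of wild-type replicate 1 to wild-type replicate 2 than Nras, at which it was 0.261. The median ratio was 1.48.

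Braf encodes the Raf kinase that is most often mutated in cancer (chromosome 6, 39603237 to 39725463, minus strand). It had a promoter signal of 1.05 and 1.92 in the wild type and of 7.10 and 2.96 in ApcMin/+ mice. As at Nras, the groups did not overlap. The means were 1.48 ± 0.618 and 5.03 ± 2.93 (SD, n = 2 each), with a log2 difference of 1.21 (standard error 0.71, limma, adjusted p = 0.683). It was 0.36 relative to the median promoter and 0.70 without ApcMin/+ replicate 1. The wild-type values come from 3 fragments (exact Poisson interval 0.619 to 8.77) and 18 fragments, and those of the ApcMin/+ libraries from 53 and 32. Without wild-type replicate 1 and with centring, the difference was -0.12.

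**Figure D1:**
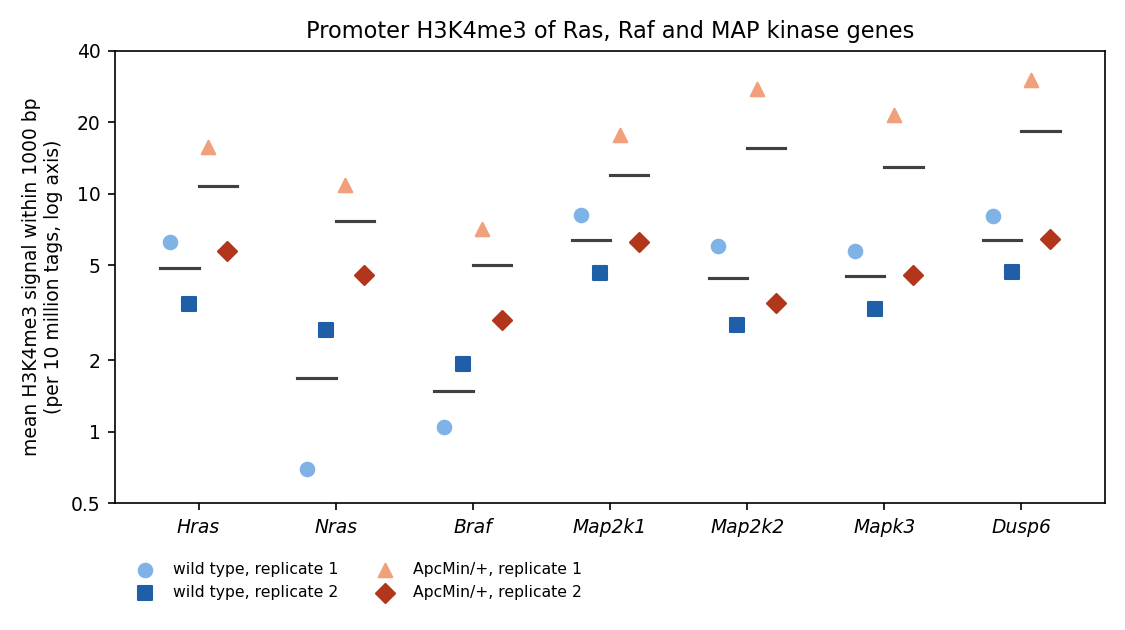
Mean H3K4me3 signal within 1000 bp of the 5′ end of each gene, on a log axis and scaled by the authors to 10000000 tags, with 1 point per library and a bar at the mean of each genotype. ApcMin/+ replicate 1 is the highest library at all 7 genes, and ApcMin/+ replicate 2 lies above both wild-type libraries at Nras and Braf and between them at the other 5.

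Map2k1 and Map2k2 encode MEK1 and MEK2, the kinases that activate ERK. Map2k1 (chromosome 9, 64185770 to 64253631, minus strand) held 8.13 and 4.64 in the wild type and 17.7 and 6.26 in ApcMin/+ mice. The groups overlapped, with means of 6.39 ± 2.47 and 12.0 ± 8.10 (SD, n = 2 each). The log2 difference of 0.70 (standard error 1.21, limma, adjusted p = 0.684) was the smallest of the 7. It was 0.015 without ApcMin/+ replicate 1 and turned to -0.15 relative to the median promoter.

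Map2k2 (chromosome 10, 81105915 to 81133975, plus strand) held 6.04 and 2.80 in the wild type and 27.7 and 3.47 in ApcMin/+ mice. The second ApcMin/+ library was again inside the wild-type range, and below their mean of 4.42 ± 2.30 (SD, n = 2). The ApcMin/+ mean of 15.6 ± 17.1 (SD, n = 2) thus came from 1 library. Between the means the log2 difference amounted to 1.13 (standard error 1.13, limma, adjusted p = 0.683), to 0.28 relative to the median promoter and to -0.21 without ApcMin/+ replicate 1. The ratio of ApcMin/+ replicate 1 to ApcMin/+ replicate 2 was 7.98 at Map2k2, and 99.7% of the tested promoters had a lower one. Their median was 3.16, with 5.30 at the 95th percentile. At Mapk3 and Dusp6 the ratio was 4.70 and 4.67, at Hras and Map2k1 2.76 and 2.83, and at Nras and Braf 2.39 and 2.40. The 2 MEK genes, which act at the same step, thus had the order Map2k1 over Map2k2 in the other libraries and the reverse in ApcMin/+ replicate 1.

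**Figure D2:**
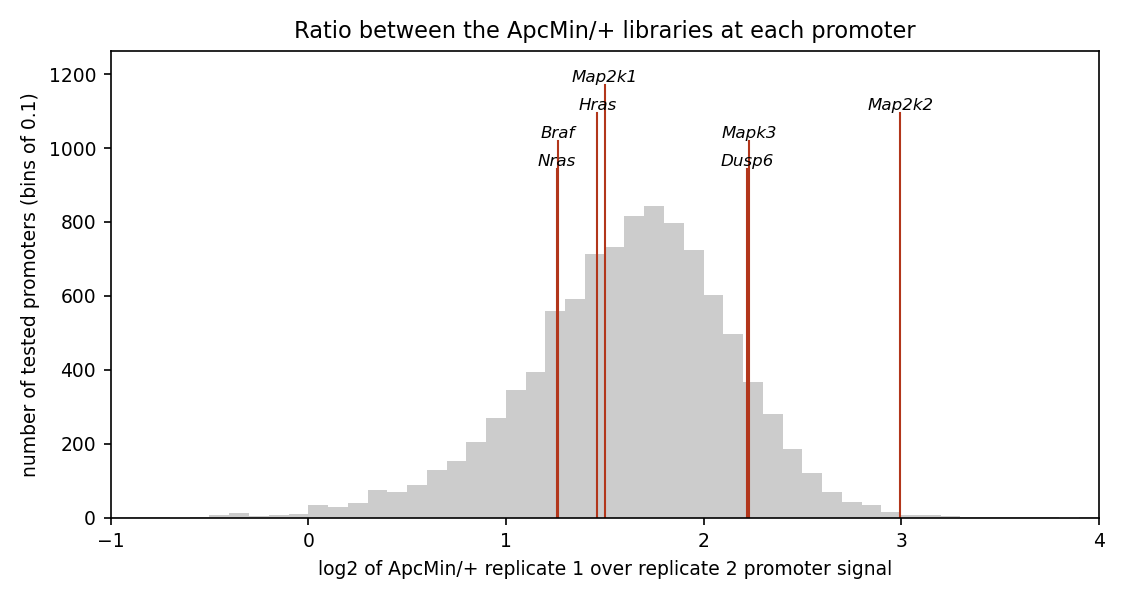
Histogram of the log2 ratio of promoter signal between ApcMin/+ replicates 1 and 2 over the 9930 tested promoters, in bins of 0.1, with red lines at the 7 genes. Map2k2, at a ratio of 7.98, lies in the far right tail, Mapk3 and Dusp6 lie near the 90th percentile (89.8 and 89.5), and Nras and Braf lie to the left of the median ratio of 3.16.

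Mapk3 encodes ERK1 (chromosome 7, 126759601 to 126765819, plus strand). It held 5.75 and 3.27 in the wild type and 21.4 and 4.55 in ApcMin/+ mice. The groups overlapped, with means of 4.51 ± 1.75 and 13.0 ± 11.9 (SD, n = 2 each). On the log2 scale they differed by 1.05 (standard error 1.14, limma, adjusted p = 0.683), by 0.20 relative to the median promoter and by 0.048 without ApcMin/+ replicate 1.

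Dusp6 encodes a phosphatase that inactivates ERK and is itself induced by ERK signaling (chromosome 10, 99263231 to 99267489, plus strand). Its signal of 8.06 and 4.70 in the wild type stood against 30.2 and 6.46 in ApcMin/+ mice. The second ApcMin/+ library was inside the wild-type range and close to the wild-type mean. The group means of 6.38 ± 2.38 and 18.3 ± 16.8 (SD, n = 2 each) gave a log2 difference of 1.09 (standard error 1.25, limma, adjusted p = 0.683). It was 0.23 relative to the median promoter and 0.055 without ApcMin/+ replicate 1.

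Across the 7 genes, the mean was higher in ApcMin/+ mice at all 7, as it was at 99.3% of the tested promoters. The groups did not overlap at 2 of the 7, Nras and Braf, where 38.5% of the tested promoters had both ApcMin/+ libraries above both wild-type libraries. Nras and Braf passed the filter only through the ApcMin/+ libraries, so this count is no test of a difference. With centring, no gene of the 7 had groups that did not overlap, against 13.1% of promoters higher and 14.3% lower. The centred ApcMin/+ mean was higher at 6 of the 7, against 48.8% of promoters. The 6 include Nras and Braf, and Hras at 0.049 (standard error 0.28), so that count is no test either. With centring and without ApcMin/+ replicate 1, the differences were -0.11 at Map2k1, -0.34 at Map2k2, -0.079 at Mapk3 and -0.072 at Dusp6. They were 0.12 at Hras, 1.02 at Nras and 0.57 at Braf. The median log2 difference of the 7 was 1.09, and that of all tested promoters was 0.85. Without ApcMin/+ replicate 1 these medians were 0.055 and 0.13. In limma 0 of the 7 passed, and 0% of the 9930 promoters passed in either direction (1 of the 7, Nras, and 1.33% of promoters had an unadjusted p under 0.05, all of them higher in ApcMin/+ mice). With centring, 0 of the 7 passed, against 0.0504% of promoters as higher and 0.0705% as lower. With ApcMin/+ replicate 2 left out, so that a single ApcMin/+ library was assumed to vary like the wild-type ones, 6 of the 7, all but Map2k1, passed as higher, against 65.2% of all promoters as higher and 0.0403% as lower.

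**Figure D3:**
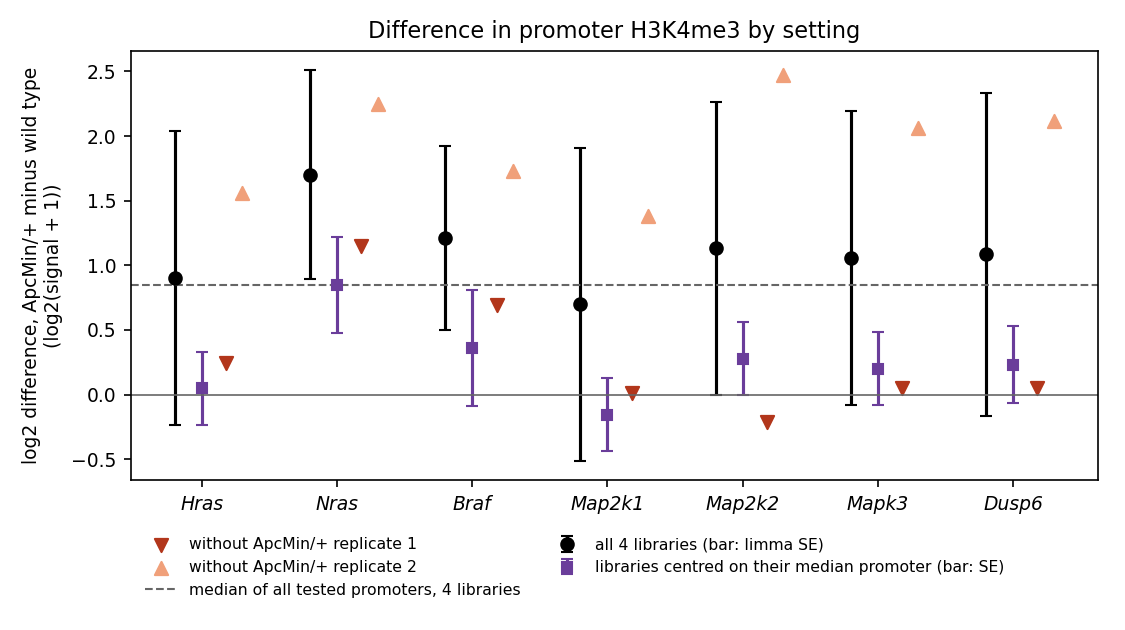
Log2 difference in promoter signal, ApcMin/+ minus wild type, with all 4 libraries (black, bar is the limma standard error), with libraries centred on their median promoter (violet, bar is the standard error), and without ApcMin/+ replicate 1 or 2 (triangles). The dashed line is the median of all tested promoters, 0.85. Without ApcMin/+ replicate 1, Nras and Braf stay at 1.15 and 0.70 and the other 5 genes lie between -0.21 and 0.24.

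The genes differed in where the mark lay relative to the annotated start. In 200 bp bins over the mean of the 4 libraries, the maximum was 200 to 400 bp upstream at Hras, 0 to 200 bp downstream at Nras, 400 to 600 bp downstream at Braf, 600 to 800 bp downstream at Map2k1, Map2k2 and Mapk3, and 1400 to 1600 bp downstream at Dusp6. The place of the maximum was the same in 4 of 4 libraries at Braf, Map2k2 and Mapk3, in 3 of 4 at Hras, Nras and Map2k1, and in 2 of 4 at Dusp6.

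At Hras the bin just downstream of the start was nearly empty, with 1.37 and 0.077 in wild-type and 1.21 and 0.25 in ApcMin/+ libraries, and the mark lay on both sides of it. The upstream side, towards Lrrc56, held more. The downstream 1000 bp carried 34.3% and 30.5% of the signal in wild-type and 26.2% and 39.9% in ApcMin/+ libraries, whereas the median tested promoter carried 68.2% there. Averaged over the libraries, the 30.8% at Hras was above that of only 6.41% of tested promoters. Map2k2 also had the mark on both sides of a low bin in ApcMin/+ replicate 1 and wild-type replicate 2, but not in wild-type replicate 1. In ApcMin/+ replicate 2 the bin from 400 to 600 bp, at 2.03, was as low as the bin at the start. In ApcMin/+ replicate 1 the bins before the start, at it and 600 bp after it held 53.0, 4.62 and 75.7, and in ApcMin/+ replicate 2 they held 3.79, 2.07 and 10.1. In the wild type the same bins held 4.12, 4.86 and 16.0 in replicate 1 and 4.64, 0.838 and 7.10 in replicate 2.

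At Nras, Braf, Map2k1 and Mapk3 the mark lay to the downstream side, which carried 86.2%, 85.8%, 85.6% and 90.3% of the signal averaged over the libraries. The bin at the start of Braf was at 0 and 0.24 in wild-type and 0.15 and 0.053 in ApcMin/+ libraries, while the bin from 400 to 600 bp held 7.36, 7.31, 26.2 and 10.4. The value in wild-type replicate 1 rests on few fragments, since the whole Braf window held 3 there.

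At Mapk3 the bin with the most signal was that from 600 to 800 bp in all 4 libraries. Its bins at the start held 7.43, 1.64, 1.79 and 1.49, while the bins with the most signal held 19.0, 10.0, 93.0 and 15.0. Of 7 distinct annotated starts, that of Mapk3-201 is the 5′ end of the gene, and within 500 bp of it the signal was 3.48, 2.51, 5.69 and 2.39. Mapk3-203 begins 996 bp downstream, and within 500 bp of that start the signal was 10.1, 5.79, 47.6 and 8.35. It was 8.76, 4.45, 35.9 and 5.77 around Mapk3-207, 1148 bp downstream. A window of 500 bp on each side of the gene 5′ end leaves most of this out, and the log2 difference was then 0.26, in place of 1.05. Braf also had more signal around a downstream start. It held 0.536, 1.28, 4.65 and 2.34 around the first start and 2.09, 3.08, 11.5 and 4.67 around that of Braf-202, 270 bp downstream. Its log2 difference hardly changed with the window of 500 bp, at 1.22 in place of 1.21. Which start the cells use was not measured here.

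At Dusp6 the signal within 500 bp of Dusp6-202, which begins 1046 bp downstream, was 13.1, 8.67, 43.4 and 10.7, more in each library than the 8.03, 4.24, 35.6 and 5.83 at Dusp6-201, the 5′ end of the gene. On the mean of the libraries, the starts deep inside Braf, Map2k1 and Map2k2 carried less than the first. In wild-type replicate 1, however, Braf-203, 80677 bp downstream, held 0.697 and the first Braf start 0.536, each from 1 fragment. The 3 starts of Braf that lie 60384 to 82209 bp downstream had a mean signal from 0.183 to 0.463, and 3 downstream starts of Map2k1 from 0.373 to 1.03. Of the 5 Map2k2 starts from 12697 bp on, Map2k2-208, at 22700 bp, was the highest, with 1.87, 1.89, 4.36 and 1.16.

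**Figure D4:**
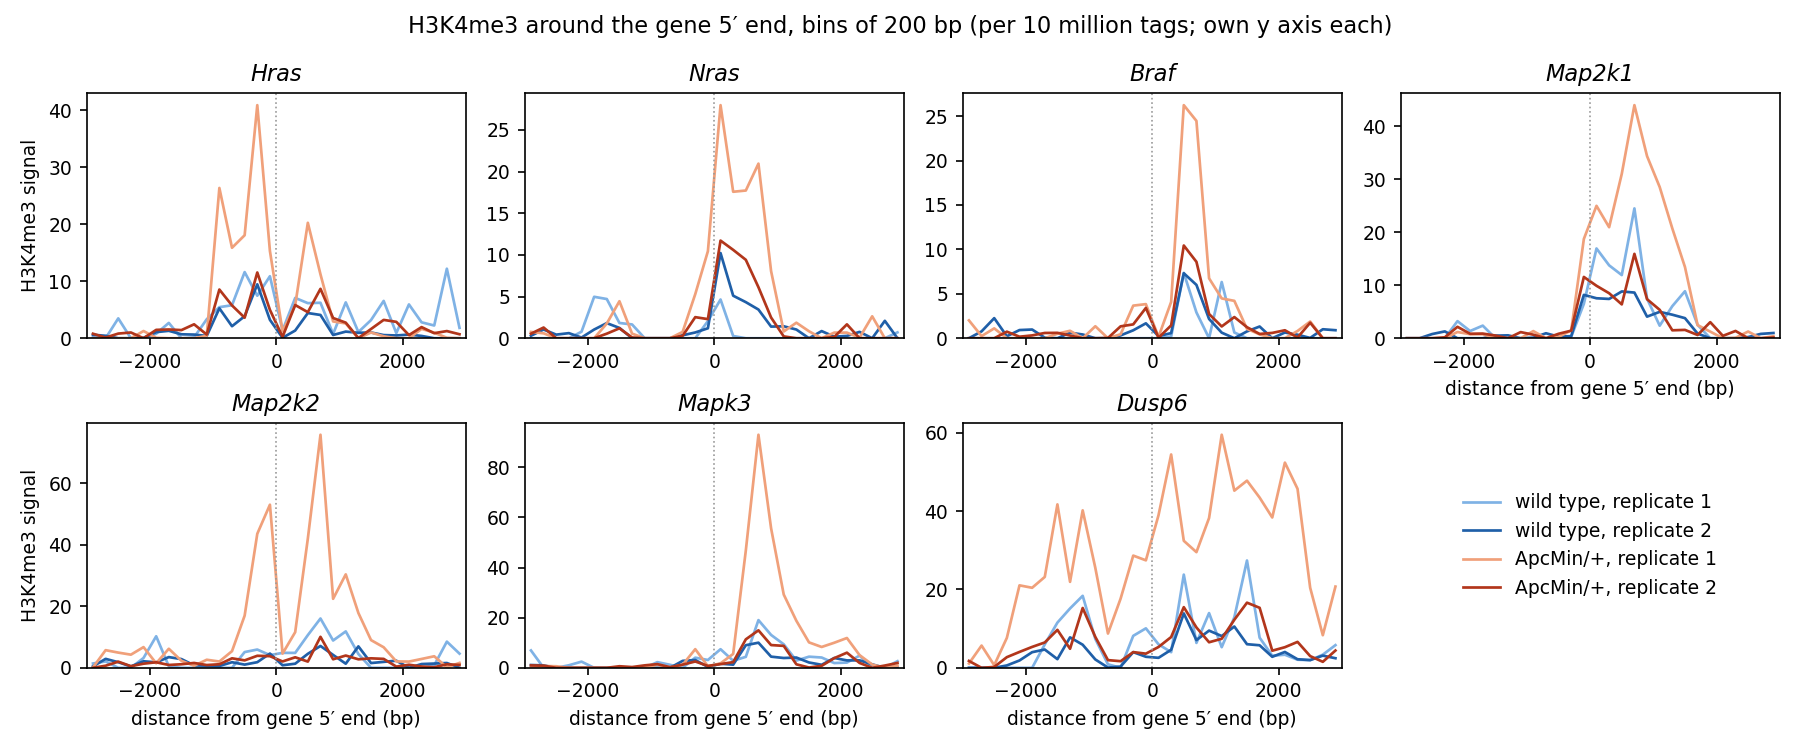
H3K4me3 signal in 200 bp bins over 3000 bp on each side of the gene 5′ end (dotted line), upstream to the left, with 1 line per library and a y axis for each gene. The mark flanks a gap at Hras and, in ApcMin/+ replicate 1 and wild-type replicate 2, at Map2k2. It lies downstream of the start at Nras, Braf, Map2k1 and Mapk3, and covers most of the window at Dusp6.

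On the mean of the 4 tracks, Dusp6 carried the mark over the longest stretch of the 7 genes. The enriched region at its promoter, a stretch where the mean of the 4 tracks was at least 5 times the genome-wide mean, was 6200 bp long, from 2330 bp upstream to 3869 bp downstream of the start (chr10:99260901-99267100). It therefore covered nearly all of the gene. Only 196 of the 9930 tested promoters had a region at least as long, and the median was 2000 bp. The mean signal over this region was 6.75 and 4.14 in wild-type, and 29.4 and 6.35 in ApcMin/+ libraries, in the same order as at the promoter. ApcMin/+ replicate 1 thus weighed most in the mean track, and no length was measured in single libraries. The bin from 2000 to 1800 bp upstream held 0 and 3.99 in wild-type and 20.4 and 5.34 in ApcMin/+ libraries. That from 2800 to 3000 bp downstream held 5.79 and 2.45 in wild-type and 20.7 and 4.41 in ApcMin/+ libraries. At the other genes the region was 4700 bp long at Mapk3, 4100 bp at Hras, 2600 bp at Map2k2, 1900 bp at Map2k1, 1500 bp at Braf and 1300 bp at Nras. The lengths at Mapk3 and Hras depended on the limit, and were 1900 and 1800 bp at 10 times the genome-wide mean, whereas Dusp6 kept 5600 bp. With 2000 bp on each side of the start in place of 1000, Dusp6 was at a mean percentile of 99.9 among all promoters.

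The promoters most like each gene over the 4 libraries, by Euclidean distance of log2(signal + 1), were Fbxw5 for Hras (0.075), Mto1 for Nras (0.27), Vcpkmt for Braf (0.067), Cyb5b for Map2k1 (0.060), Lpp for Map2k2 (0.16), Pheta1 for Mapk3 (0.056) and Lrrc75a for Dusp6 (0.11). Nras had the most distant nearest promoter. Mto1, its match, had 1.03 and 2.91 in wild-type and 11.0 and 4.62 in ApcMin/+ libraries.

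Around these 7 genes, 108 other genes of the pathway in 10 lists were measured, and 79 of them passed the filter. None of the 79 passed the test in limma in either direction, with 1 at an unadjusted p under 0.05, and none passed with centring. Their median log2 difference was 0.81, and the groups did not overlap at 28 of the 79, each time with ApcMin/+ higher, against 38.5% of all promoters. As with Nras and Braf, some of the 79 passed the filter only through the ApcMin/+ libraries. Since the filter averages both genotypes, these counts cannot test a difference, for the lists or for all promoters. From each list at most 2 genes, taken by the highest mean signal, are named below, with differences that are neither centred nor without a library. The medians of the 10 lists lay between -0.32 and 0.16 with centring, and between -0.052 and 0.18 without ApcMin/+ replicate 1.

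Upstream of Ras, 5 of 8 ligands of the EGF receptor family passed the filter, with a median log2 difference of 0.73. Hbegf and Tgfa, which encode such ligands, had differences of 0.73 and 1.09. Of 10 receptor tyrosine kinases 8 were tested, with a median of 0.84, and Erbb3 and Insr, the latter the insulin receptor, had the highest signal. Erbb3 held 7.68 and 7.46 in wild-type and 32.1 and 7.10 in ApcMin/+ libraries. Of 13 adaptors and exchange factors 8 were tested (median 1.02), led by the adaptor Shc1 at 1.10 and the exchange factor Rasgrf2 at 0.72. The GTPase activating proteins, which switch Ras off, had a median of 0.53 over 6 tested of 10, with 1.11 at Rasa1 and 0.52 at Nf1.

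Beside Ras itself, all 10 Ras-related small GTPases were tested, with a median of 0.74, and Rap2a and Ralb had differences of 0.54 and 0.69. The other Raf, MEK and ERK kinases and scaffolds had a median of 0.94 over 10 tested of 13. Shoc2, a scaffold that promotes Raf activation, held 8.72 and 5.74 in wild-type and 30.4 and 7.32 in ApcMin/+ libraries. Araf, the X-linked gene of a Raf kinase, did not pass the filter, with a mean signal of 0.896 where Braf had 3.26.

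Downstream of ERK, 5 of 7 kinases were tested, with a median of 0.58, led by Rps6ka1 at 1.28 and Mknk1 at 0.68. Of 14 transcription factors and induced genes 9 were tested (median 0.92), led by Fos at 1.08 and Ets2 at 0.73, both genes of transcription factors. Of 12 negative feedback regulators, the group to which Dusp6 belongs, 10 were tested, with a median of 0.77. Spry2, an inhibitor of receptor signaling, held 7.67 and 4.37 against 23.5 and 5.01, and Dusp4, a phosphatase of MAP kinases, 6.74 and 3.56 against 22.5 and 7.35. The p38 and JNK kinases and their activators, the parallel MAP kinase branches, had a median of 0.81 over 8 tested of 11, with 0.84 at Map2k3 and 0.81 at Map2k7.

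**Figure D5:**
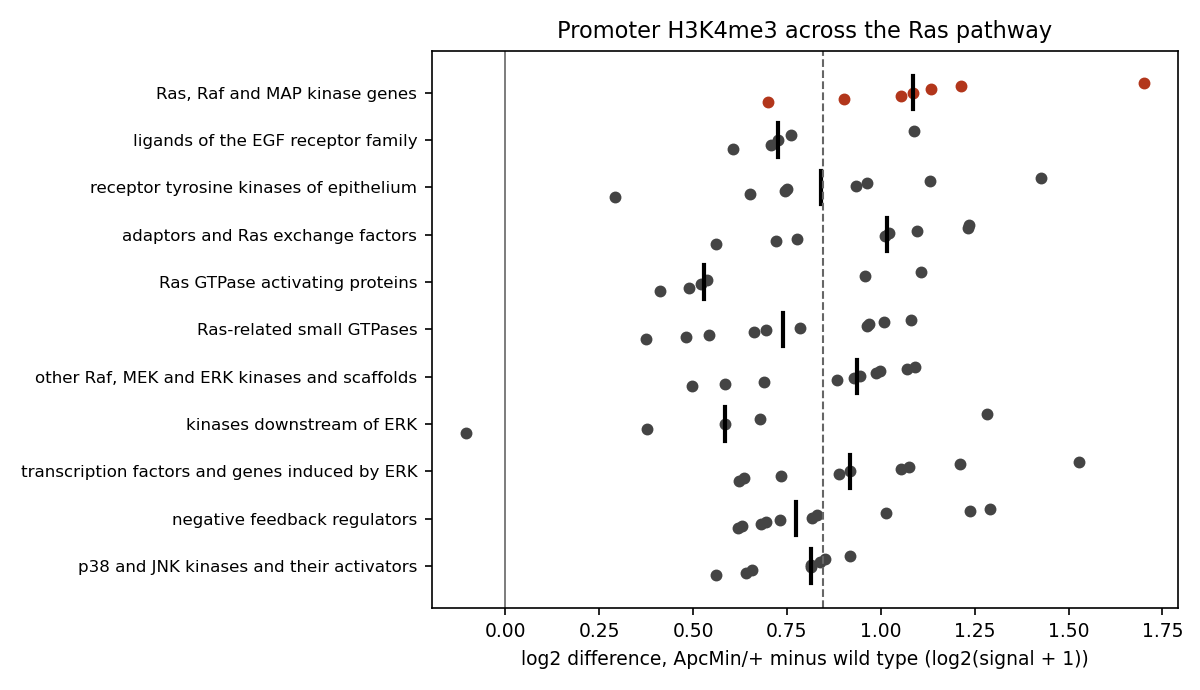
Log2 difference in promoter signal, ApcMin/+ minus wild type, for each tested gene of the 7 described and of 10 lists of the pathway, with 1 point per gene, a bar at the median of each list and a dashed line at the median of all tested promoters, 0.85. The list medians lie between 0.53 and 1.02, and the median of the 7 genes (red) is 1.09.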

How the data were processed

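The authors aligned CUT&RUN read pairs to mm10 with Bowtie2, removed duplicates with Picard and wrote the coverage with HOMER. The deposited values are signal, that is, coverage scaled by the authors to a library of 10000000 tags, with no control subtracted and replicates kept apart. The signal was averaged within 1000 bp of each gene 5′ end (GENCODE M21). Promoters that averaged 2 or more, 9930 in all, were tested with limma 3.58.1 (R 4.3.3, trend) on log2(signal + 1), a scale that understates changes at low signal, with Benjamini-Hochberg adjustment over all of them and a threshold of 0.05. An exact permutation test of 2 libraries against 2 would reach no p below 0.333. Fragments were estimated as summed signal over the track sum per tag, and Poisson intervals cover counting error only. Enriched regions were called on the mean track in 100 bp bins, with a limit of 5 genome-wide means, and those up to 500 bp apart were merged. Groups follow the labels. The members, gene lists and tests were chosen with earlier results of these data known. Named are the 7 genes, the nearest promoter of each, the 2 highest tested genes of each list, and genes starting within 1000 bp of a member. Araf and the markers named were picked after their values were seen. Some genes of the lists are not reported here. The test was checked on simulated data that varied by counting error only. They lacked the spread between replicates seen here, so the check does not show how the test performs on these libraries. Python 3.11.15 with pandas 2.3.3, numpy 2.4.6 and scipy 1.17.1 did the rest. Alternatives changed scaling, pseudocount, filter, window, start, regions, the replicate block and libraries. The other libraries of the series were not analysed here.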

Additional observations from a re-analysis of the deposited data

How the results depend on the processing

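Of 138 differences at the 7 genes over all alternatives, 118 kept their direction and stayed short of the threshold in limma, 14 turned below 0 and 6 passed, all of these without ApcMin/+ replicate 2. Map2k1 turned to -0.15 with centring, with quantile normalization, and with the replicate block and centring. Without 1 library each, the differences ranged from 0.24 to 1.56 at Hras, 1.14 to 2.26 at Nras, 0.70 to 1.73 at Braf, 0.015 to 1.38 at Map2k1, -0.21 to 2.47 at Map2k2, 0.048 to 2.06 at Mapk3 and 0.055 to 2.12 at Dusp6. With centring as well, they ranged from -0.084 to 0.18 at Hras (-0.018 without ApcMin/+ replicate 2), 0.067 to 1.63 at Nras, -0.12 to 0.84 at Braf, -0.28 to -0.030 at Map2k1 (-0.20 and -0.11 without ApcMin/+ replicates 2 and 1), -0.34 to 0.89 at Map2k2, -0.079 to 0.48 at Mapk3 and -0.072 to 0.54 at Dusp6.

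The median difference over the 7 genes ranged from 0.055 to 2.06 without 1 library each, and from -0.072 to 0.48 with centring as well, with 0.092 without wild-type replicate 2. That over the pathway lists ranged from 0.069 to 1.56 without 1 library each, and was -0.041 with centring, with or without the replicate block, and -0.033 with quantile normalization. With 1 library left out and centring it was -0.057 and -0.026 without the first and the second ApcMin/+ library, and -0.028 and -0.036 without the first and the second wild-type library. Centring and quantile normalization remove by construction what most promoters share. Without ApcMin/+ replicate 2, 56 genes of the pathway lists passed, and 6475 promoters were higher and 4 lower.

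The count of all promoters past the threshold went from 0 to 5 higher and 7 lower with centring, and to 2 higher with quantile normalization. With centring and 1 library left out, 0 to 15 were higher and 0 to 20 lower, namely 2 higher without wild-type replicate 1, 15 and 3 lower without wild-type replicate 2, and 10 and 20 lower without ApcMin/+ replicate 2. The labels do not say that a replicate number marks a shared batch or day, and whether the 2 experiments stated in the methods carry these numbers is not given. Deviations of same-numbered libraries from their group means correlated at 0.196 across promoters, and the replicate block gave 0 higher and 1 lower, or 5 higher and 10 lower with centring, with 0 of the 7 genes past the threshold. Wild-type replicate 1 held 2 to 23 fragments at the 7 promoters, and each genotype had 2 libraries. Lengths of the enriched regions changed with their limits at 7 of 7 genes.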
